A study of Mus musculus with 15 samples.

Results

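Expression of the genes that make ribosomes was followed in 4 populations of sorted mouse bone marrow cells. The genes encode RNA polymerase I with its initiation factors and the proteins that modify, cut and fold ribosomal RNA and load it with ribosomal proteins. Of 48 genes chosen by symbol, 47 were measured among the 19296 genes of the arrays, and Noc2l was not analysed here. A gene was read from a probe set annotated with that symbol alone, and from the brightest such probe set where there were several.

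RNA polymerase I transcribes the repeated ribosomal DNA in the nucleolus into a single long precursor. Small nucleolar ribonucleoproteins (snoRNPs) of the box C/D class guide methylation of this precursor, and those of the box H/ACA class guide its pseudouridylation. Large assemblies, among them the small subunit processome, then fold and cut it into the rRNAs of both subunits, which leave the nucleus as pre-ribosomes. Blood stem cells are known for a low rate of protein synthesis compared with committed progenitors, so the genes of this pathway are of interest in them.

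The cells were haematopoietic stem cells (HSC) and granulocyte/macrophage progenitors (GMP) of wild type C57Bl/6 mice, from young animals of 6 to 12 weeks and old animals of 22 to 30 months. HSC had been sorted as Lin-/c-Kit+/Sca-1+ cells that were Flk2-, CD48- and CD150+, and GMP as Lin-/c-Kit+/Sca-1- cells that were CD34+ and FcγR+. RNA of 5 young HSC, 3 old HSC, 4 young GMP and 3 old GMP samples was amplified and hybridised to 1 array each, and whether a sample came from 1 animal or a pool was not given in the sources used here. Values are log2 signals, and a level of one gene is not set against that of another. In samples of many cells, fewer cells that express a gene and less RNA per cell cannot be told apart.

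The sort could be checked against marker genes: the 4 measured HSC markers, with Slamf1, Procr, Mecom and Hlf, were higher in HSC at both ages, and the 6 GMP markers, with Mpo and Elane, were higher in GMP. Some arrays stood apart from their group. Every sample was labelled male, yet Xist, an RNA of female cells, was high on most young arrays and on no old one. It stood at 10.02 to 11.51 on 4 of the 5 young HSC arrays and at 8.92 to 10.95 on 3 of the 4 young GMP arrays. Replicate 1 of both young groups (4.72 and 5.49) and the 6 old arrays (5.46 to 5.84) were low. The mean of the Y-linked genes was lowest in young HSC replicate 4 (4.94) and young GMP replicate 4 (5.20), against 8.45 to 8.80 on the old HSC arrays, and the young arrays of replicates 2, 3 and 5 carried both Xist and Y-linked signal (7.12 to 8.47). The part of this difference between young and old arrays in the age comparisons was not tested. The same 2 replicate 4 arrays held the lowest values of their group for 29 and 33 of the 47 genes. Of all genes they held the lowest in 28.7% and 31.2% of cases. Old arrays stood apart as well. Old HSC replicate 2 held the lowest values of its group for 38 of the 47 genes (32.6% of all genes). Old HSC replicate 3 and old GMP replicate 3 each held the highest for 41 (33.6% and 34.7% of all genes). Arrays also differed in the spread of their values: the interquartile range averaged 2.51 ± 0.19 log2 over young HSC arrays (SD, n = 5), 2.42 ± 0.20 over young GMP (n = 4), 2.34 ± 0.12 over old GMP (n = 3) and 2.15 ± 0.19 over old HSC (n = 3). Results are therefore given with and without replicate 4 of both young groups, and the called counts also with each array left out.

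The mean over the 47 genes was 9.90 ± 0.12 in young HSC, 9.53 ± 0.18 in old HSC, 10.14 ± 0.09 in young GMP and 10.10 ± 0.15 in old GMP. Old HSC was thus the group with the lowest mean, and the 2 GMP groups differed by less than the spread between arrays. The HSC groups met at their edges: young HSC replicate 4, the lowest young array, stood at 9.71, the same level as old HSC replicate 3, the highest old array. These 2 arrays also had interquartile ranges of 2.21 and 2.33 log2, the narrowest of young HSC and the widest of old HSC. A fit with that range as a covariate is given with the age difference.

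**Figure D1:**
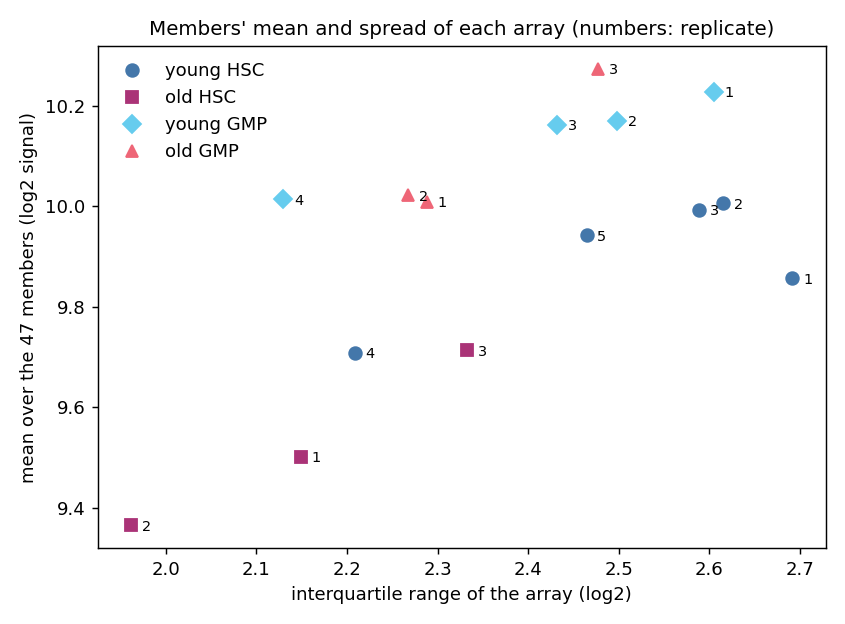
Mean log2 signal of the 47 genes on each array, plotted against the interquartile range of that array, with 1 point per array and a colour per group. Young HSC replicate 4 (9.71, interquartile range 2.21) and old HSC replicate 3 (9.71, 2.33) lie side by side, and the GMP arrays of both ages share one range.

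With age in HSC, 18 of the 47 genes (38.3%) fell and 0 rose. Among all genes tested, 9.22% fell and 2.25% rose at the same threshold, a limma adjusted p under 0.05. The fallen genes included 3 of RNA polymerase I, 6 of large subunit assembly and 6 of small subunit assembly, and their decreases ran from 1.91-fold (Polr1d) to 1.29-fold (Nop56). The median difference of the 47 genes was -0.37 log2, against 0.03 for all genes, and 42 of the 47 lay below zero, against 46.6% of all genes. The ranges of the groups did not overlap for 18 genes, all lower in old HSC, against 7.69% of all genes. The ribosome genes are bright ones, and brighter genes fell more often: of the 2329 genes whose mean signal lay in the middle range of the 47 (9.08 to 10.51 log2), 28% fell and the median was -0.31. Of these genes of like signal 84.2% lay below zero, against 89.4% of the 47. In 455 of the 2329 every old HSC array was below every young one. The 38.3% of the ribosome genes is thus to be read against both 9.22% and 28%, and the distance to the genes of like signal is the smaller. That range is the interquartile range of the 47, so it leaves out their brightest and dimmest genes. Polr1d and Fbl lie above it, for example, and Rrp9 below.

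**Figure D2:**
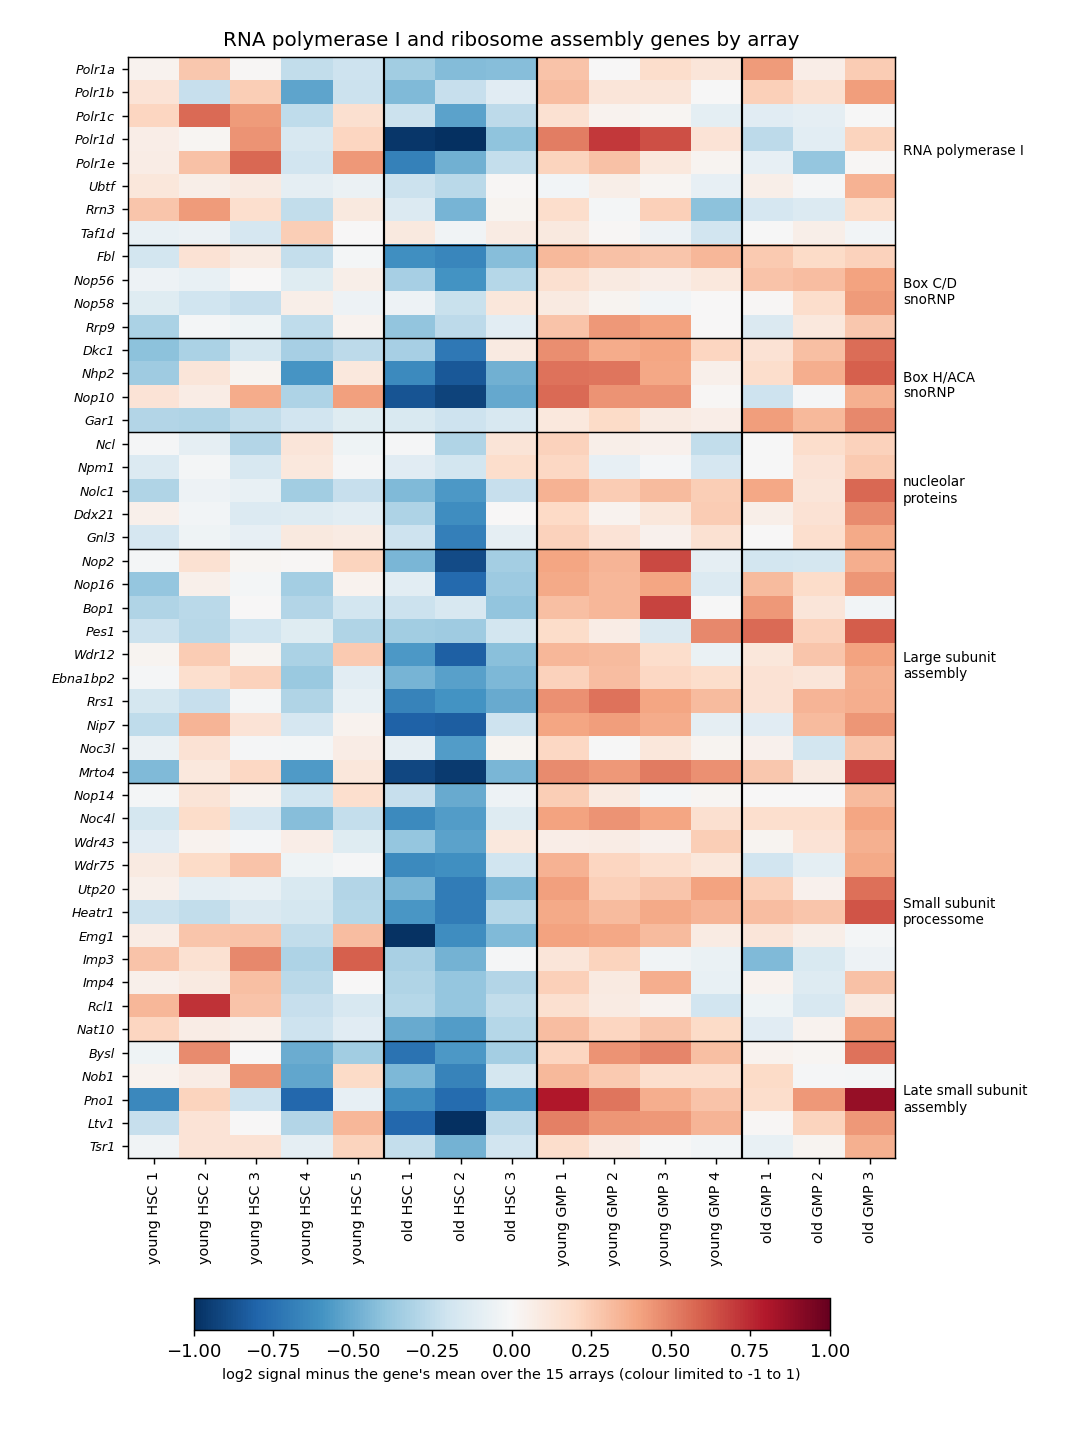
Log2 signal of the 47 genes on the 15 arrays, each gene shown relative to its own mean over the arrays, with genes ordered by role and arrays by group. Old HSC arrays are low for most genes, old HSC replicate 3 least so, and young HSC replicate 4 is low for many genes within its group.

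RNA polymerase I itself supplied the gene with the largest fall. Polr1d encodes a small subunit shared with RNA polymerase III. Its signal was 11.11, 11.07, 11.49, 10.89 and 11.26 on the young HSC arrays and 10.07, 9.97 and 10.65 on the old ones, so that every old array was below every young one. The difference was -0.94 ± 0.17 log2 (SE), 1.91-fold lower in old HSC, with adjusted p = 0.00464. A second, dimmer Polr1d probe set stood at -0.41 ± 0.16 log2. Polr1c, which pairs with it in both polymerases, read 10.63, 10.98, 10.84, 10.17 and 10.58 in young HSC and 10.20, 9.88 and 10.16 in old HSC, and fell by 1.47-fold (adjusted p = 0.0227). Here young replicate 4 lay inside the old range. Polr1e, a subunit found in RNA polymerase I alone, went from 8.32, 8.54, 8.83, 8.06 and 8.69 in young HSC to 7.57, 7.77 and 8.01 in old HSC, a decrease of 1.63-fold (adjusted p = 0.0115) with no overlap.

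The other 5 genes of the polymerase group did not pass. Polr1a, the largest catalytic subunit, measured 9.16, 9.39, 9.13, 8.88 and 8.92 in young HSC and 8.78, 8.69 and 8.70 in old HSC (-0.37 ± 0.12 log2, adjusted p = 0.0581). Rrn3, the factor that links the polymerase to the promoter in response to growth signals, measured 10.27, 10.42, 10.16, 9.75 and 10.09 in young HSC against 9.86, 9.53 and 10.02 in old HSC (-0.33 ± 0.17 log2, adjusted p = 0.174). In Polr1a every old array was below every young one, in Rrn3 the groups overlapped, and neither reached the threshold. The catalytic subunit Polr1b stood at -0.14 log2, and the promoter factors Ubtf and Taf1d at -0.18 and 0.06 log2, all with overlapping groups. For Taf1d, 5 further probe sets gave differences from -0.55 to 0.15 log2, so its value depends on the probe set.

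The snoRNP proteins were split. Fibrillarin (Fbl) is the methyltransferase of the box C/D particles, and its signal was 11.45, 11.78, 11.72, 11.39 and 11.62 in young HSC and 11.02, 10.99 and 11.21 in old HSC. This was a decrease of 1.43-fold (-0.52 ± 0.11 log2, adjusted p = 0.00837) with the groups apart, although a second, dimmer Fbl probe set stood at 0.00 log2. Nop56, a core protein of the same particle, fell from 11.35, 11.32, 11.40, 11.28 and 11.46 in young HSC to 11.06, 10.80 and 11.11 in old HSC (1.29-fold, adjusted p = 0.0258). Its partner Nop58 was not called, with 11.12, 11.04, 11.01, 11.29 and 11.19 in young HSC and 11.18, 11.01 and 11.35 in old HSC (0.05 ± 0.12 log2). Rrp9, a protein specific to the U3 particle, read 7.49, 7.79, 7.76, 7.55 and 7.84 in young HSC and 7.41, 7.55 and 7.70 in old HSC (-0.13 ± 0.13 log2), with the groups overlapping.

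In the box H/ACA particle, which also forms part of telomerase, Nop10 carried the second largest fall of the 47. This small core protein read 11.82, 11.76, 12.06, 11.38 and 12.10 in young HSC and 10.83, 10.76 and 11.17 in old HSC, 1.87-fold lower (-0.90 ± 0.17 log2, adjusted p = 0.00529). Nhp2 missed the threshold, with 9.88, 10.36, 10.27, 9.65 and 10.34 in young HSC against 9.60, 9.39 and 9.76 in old HSC (-0.51 ± 0.17 log2, adjusted p = 0.0527). Nop10 was below its young range on each old array, whereas the Nhp2 groups overlapped. Gar1 read 9.89, 9.88, 9.93, 9.99 and 10.06 in young HSC and 10.02, 9.97 and 10.02 in old HSC (0.05 ± 0.09 log2), and neither it nor the pseudouridine synthase dyskerin, Dkc1 (-0.02 ± 0.15 log2), was called.

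None of the 5 nucleolar chaperones, helicases and scaffolds passed. The nucleolin gene Ncl and the nucleophosmin gene Npm1 differed by 0.00 ± 0.13 and 0.00 ± 0.12 log2. Nolc1, a chaperone of snoRNPs, differed by -0.21 ± 0.12 log2. Gnl3 (nucleostemin), a nucleolar GTP-binding protein, measured 10.69, 10.82, 10.78, 10.96 and 10.95 in young HSC and 10.65, 10.18 and 10.77 in old HSC (-0.30 ± 0.13 log2, adjusted p = 0.126). The RNA helicase gene Ddx21 measured 10.23, 10.15, 10.04, 10.05 and 10.07 in young HSC and 9.87, 9.56 and 10.18 in old HSC (-0.24 ± 0.13 log2). In all 5 genes the ranges of the groups overlapped.

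Large subunit assembly had the highest share of fallen genes as deposited, 6 of 10, where 9.22% of all genes and 28% of genes of like signal fell. After quantile normalization Wdr12 alone of these 10 was called. Wdr12, which acts in one complex with Pes1 and Bop1, read 10.34, 10.56, 10.34, 10.00 and 10.57 in young HSC and 9.74, 9.50 and 9.89 in old HSC, 1.57-fold lower (adjusted p = 0.0106). A second Wdr12 probe set gave -0.65 log2 as well, the same as the one used. Pes1 and Bop1 stood at -0.07 ± 0.13 and -0.05 ± 0.14 log2, so the members of the complex did not all pass. Nop2, an rRNA methyltransferase, went from 9.21, 9.38, 9.25, 9.24 and 9.46 in young HSC to 8.78, 8.34 and 8.89 in old HSC, and decreased 1.56-fold (adjusted p = 0.0219) with the groups apart. Ebna1bp2, a nucleolar assembly factor, went from 9.99, 10.17, 10.23, 9.63 and 9.89 in young HSC to 9.54, 9.46 and 9.55 in old HSC, and decreased 1.38-fold (adjusted p = 0.0237). Rrs1, which helps to bring the small ribonucleoprotein with 5S rRNA into the precursor, went from 9.59, 9.54, 9.75, 9.46 and 9.70 in young HSC to 9.10, 9.17 and 9.27 in old HSC, 1.34-fold lower (adjusted p = 0.0176). Both Ebna1bp2 and Rrs1 were lower on every old array than on any young one.

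For the other called large subunit genes the groups touched. Mrto4 encodes a factor that in yeast holds the place of the ribosomal stalk. It read 9.57, 10.12, 10.21, 9.44 and 10.12 in young HSC and 9.10, 9.05 and 9.55 in old HSC (1.58-fold lower, adjusted p = 0.0251), but its second, dimmer probe set went the other way, by 0.57 ± 0.21 log2 (SE). Its direction is therefore uncertain. Nip7, a pre-rRNA processing factor, read 8.98, 9.58, 9.37, 9.07 and 9.27 in young HSC and 8.43, 8.42 and 9.03 in old HSC (1.55-fold lower, adjusted p = 0.0287). Among those that missed the threshold, Nop16 read 9.48, 9.92, 9.85, 9.53 and 9.90 in young HSC and 9.76, 9.09 and 9.51 in old HSC (-0.28 ± 0.16 log2), and Noc3l read 8.87, 9.07, 8.92, 8.91 and 9.002 in young HSC and 8.84, 8.37 and 8.96 in old HSC (-0.23 ± 0.13 log2).

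In the small subunit processome 4 of 11 genes fell and all 11 differences lay below zero. Emg1, the methyltransferase that acts on a pseudouridine of the small subunit rRNA, had the smallest adjusted p of the 47 genes. It read 10.61, 10.81, 10.82, 10.29 and 10.84 in young HSC and 9.55, 9.92 and 10.09 in old HSC, 1.77-fold lower (-0.82 ± 0.14 log2, adjusted p = 0.00321), with every old array below every young one. Wdr75, a processome subunit needed for rRNA transcription, went from 10.18, 10.29, 10.38, 10.05 and 10.09 in young HSC to 9.46, 9.48 and 9.90 in old HSC, -0.58 ± 0.14 log2 (adjusted p = 0.0151). Nat10, the rRNA acetyltransferase, went from 9.06, 8.93, 8.90, 8.64 and 8.74 in young HSC to 8.35, 8.30 and 8.57 in old HSC, 1.37-fold lower (adjusted p = 0.0309). Utp20, a very large scaffold protein of the processome, went from 8.93, 8.79, 8.81, 8.73 and 8.59 in young HSC to 8.43, 8.19 and 8.43 in old HSC, 1.34-fold lower (adjusted p = 0.0333). The groups were apart in each of these genes.

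Imp3, which binds U3 RNA, missed the threshold, with 11.08, 10.94, 11.27, 10.49 and 11.39 in young HSC and 10.47, 10.32 and 10.78 in old HSC (-0.51 ± 0.17 log2, adjusted p = 0.0551). Rcl1, a processing factor of the small subunit precursor, had 8.73, 9.12, 8.69, 8.18 and 8.24 in young HSC and 8.12, 8.02 and 8.16 in old HSC (-0.49 ± 0.17 log2, adjusted p = 0.0595). The remaining processome genes, Nop14, Noc4l, Wdr43, Heatr1 and Imp4, stood at -0.28, -0.27, -0.24, -0.31 and -0.37 log2 and were not called. In Rcl1, Heatr1 and Imp4 the old arrays were nonetheless all below the young ones.

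Among the 5 late factors of the small subunit, Ltv1 and Tsr1 fell. Ltv1, which travels with the exported precursor, had 9.18, 9.54, 9.41, 9.12 and 9.74 in young HSC and 8.62, 8.12 and 9.15 in old HSC (1.70-fold lower, adjusted p = 0.0146), with overlap between the groups. Tsr1, a GTPase-like factor of the same particle, had 9.87, 10.04, 10.05, 9.81 and 10.13 in young HSC and 9.67, 9.43 and 9.72 in old HSC (1.30-fold lower, adjusted p = 0.049), close to the threshold. Nob1, the endonuclease that makes the final cut of the small subunit rRNA, had 9.27, 9.31, 9.68, 8.72 and 9.43 in young HSC and 8.79, 8.57 and 9.07 in old HSC (-0.47 ± 0.16 log2, adjusted p = 0.0635). Bysl, needed for maturation of the small subunit, had 8.38, 8.90, 8.43, 7.93 and 8.08 in young HSC and 7.68, 7.85 and 8.09 in old HSC (-0.47 ± 0.18 log2, adjusted p = 0.0884), and the Nob1 partner Pno1 stood at -0.36 ± 0.20 log2. None of Nob1, Bysl and Pno1 was called.

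**Figure D3:**
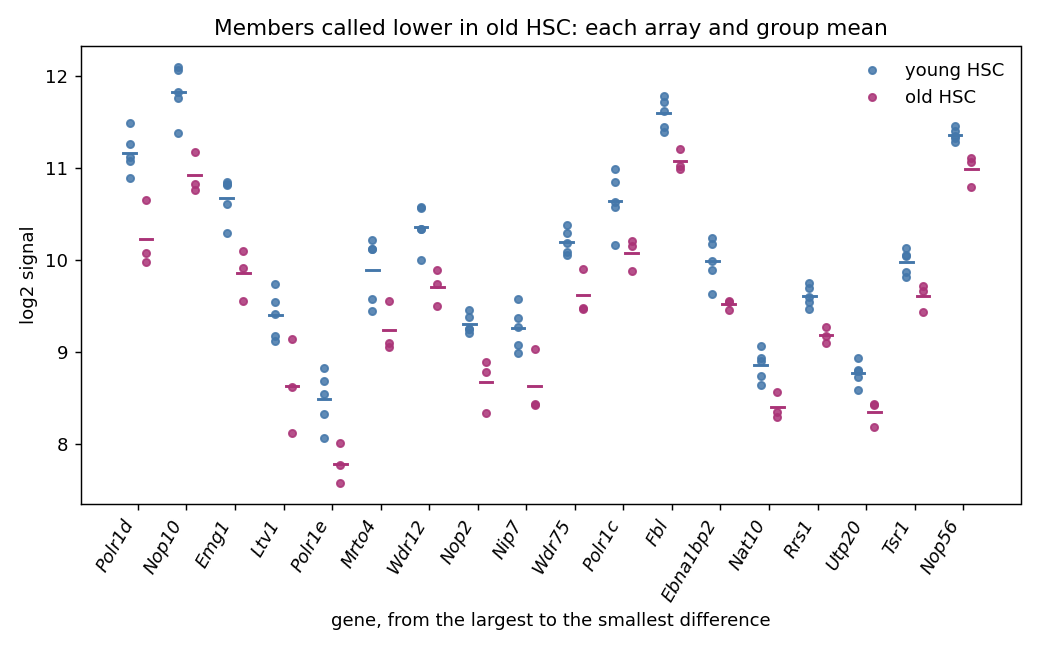
Log2 signal of the 18 genes that fell with age in HSC, with 1 point per array, young and old HSC side by side and a bar at each group mean. The groups touch in Polr1c, Ltv1, Mrto4 and Nip7 and are apart in the other 14 genes.

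The number of called genes depended on the arrays and on the normalization. After quantile normalization, which gives all arrays one distribution, 6 genes were lower (4.03% of all genes), namely Polr1d, Nop10, Polr1e, Ltv1, Emg1 and Wdr12, and Gar1 was higher by 0.36 log2 (adjusted p = 0.0483). The median of the 47 was then -0.13 log2. Once each array's interquartile range was a covariate in the fit, 0 were called, along with 0.264% of all genes lower, and the median of the 47 was -0.16 log2 with 34 below zero. Without replicate 4 of both young groups 28 fell, against 19.6% of all genes. Leaving out old HSC replicate 1 left 4 genes (Emg1, Polr1d, Nop10 and Wdr12; 1.92% of all genes), leaving out old HSC replicate 2 left 3 (Emg1, Polr1d and Nop10; 1.44%), and leaving out young HSC replicate 4 gave 27 (17.9%). Leaving out young HSC replicate 2 gave 9 (4.02%), young HSC replicate 3 gave 10 (4.09%) and old HSC replicate 3 gave 24 (12.2%). The share of all genes called lower thus moved in the same direction as the count of ribosome genes. Polr1d, Nop10 and Emg1 were called in 16 of the 17 ways of fitting.

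Other genes of the pathway were lower too. Of 90 other genes of ribosome assembly that were measured, 33 (36.7%) fell with age in HSC and 0 rose, with a median of -0.39 log2, against 9.22% of all genes and, for genes of like signal, 28% with a median of -0.31. Nifk, a nucleolar partner of the proliferation antigen Ki-67, read 10.33 ± 0.29 in young HSC (SD, n = 5) and 9.49 ± 0.46 in old HSC (n = 3), 1.79-fold lower (adjusted p = 0.0115). Znrd1, a further RNA polymerase I subunit, read 8.91 ± 0.30 and 8.15 ± 0.18, 1.70-fold lower (adjusted p = 0.0113). Rpf1 and Rrp15, both of large subunit assembly, were 1.66-fold and 1.64-fold lower (adjusted p = 0.00636 and 0.0113). This list was chosen with earlier results of these data known.

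Transcription factors known to drive ribosome genes did not pass. Myc measured 11.20 ± 0.07 in young HSC and 10.96 ± 0.38 in old HSC (-0.24 ± 0.16 log2, adjusted p = 0.289), and Mycn measured 8.78 ± 0.32 and 8.51 ± 0.18 (-0.26 ± 0.19 log2, adjusted p = 0.343). Their partner Max, the antagonists Mxd1 and Mnt, and Cdkn2a, which encodes the nucleolar protein Arf, were not called with age either. Of 7 proliferation genes, 2 fell in old HSC, where 9.22% of all genes and 28% of genes of like signal fell. These were Cdk1, by 1.70-fold, and Ccnb2, by 1.63-fold (limma adjusted p = 0.0138 and 0.0232). The mean of the 7 ran from 8.90 to 9.32 over young HSC arrays and from 8.43 to 9.13 over old ones. Among genes listed as markers of other blood cells, Nkg7 was lower by 1.52-fold and Slc4a1 higher by 1.31-fold in old HSC, and no other marker was called. Nkg7, listed for T and NK cells, was itself high in GMP. It averaged 11.56 in young and 11.25 in old GMP, against 8.10 in young and 7.49 in old HSC. Its fall is therefore not read as one of T and NK cells. The mean of the 2 measured erythroid markers ran from 6.52 to 6.78 over young HSC arrays and from 6.80 to 6.90 over old ones. Young HSC replicate 4 stood apart in its markers. Its mean of the macrophage markers was 7.19, against 6.49 to 6.64 on the other young HSC arrays and 6.69 to 6.93 on the old ones. Its mean of the HSC markers was 9.30, against 9.82 to 10.03 on the other young HSC arrays and 9.50 to 10.03 on the old ones. The part of cell division or other cells in the fall of the ribosome genes was not tested.

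Myc and Max bind the sequence CACGTG, which reads the same on both strands. RefSeq promoter windows of 300 bases, from 250 before to 50 after the transcript start (GRCm38.p6), were found for 43 of the 47 genes. The motif occurred in 9 of them (20.9%), against 9.56% of 15160 genes tested that had a window and 8.09% of all 27025 genes with one. It was present in 4 of 16 genes that fell with age in HSC (25%) and in 5 of 27 that were not called (18.5%), and no test was made of these shares. The stretches around the motif, in capitals, are shown 5′ to 3′ on the strand of the gene, because they show how the same core sits in different surroundings. The first set lies before the transcript start: Nop2 at chr6:125131793-125131858 (+), Imp4 at chr1:34439678-34439743 (+), and Rrn3 with a far site at chr16:13780454-13780519 (+) and a near one at chr16:13780621-13780686 (+).
Nop2: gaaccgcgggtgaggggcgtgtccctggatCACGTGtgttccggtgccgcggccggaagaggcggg
Imp4: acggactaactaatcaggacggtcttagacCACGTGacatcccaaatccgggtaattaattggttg
Rrn3 far site: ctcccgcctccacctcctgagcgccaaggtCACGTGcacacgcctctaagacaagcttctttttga
Rrn3 near site: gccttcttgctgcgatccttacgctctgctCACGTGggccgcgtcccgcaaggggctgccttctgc
The motif began 60 bases before the start in Nop2, 121 in Imp4, and 215 and 48 in Rrn3. The second set lies just after the start: Ltv1 at chr10:13193092-13193121 (-), Tsr1 at chr11:74898092-74898121 (+), Utp20 at chr10:88826765-88826789 (-), Pes1 at chr11:3963965-3963994 (+), Pno1 at chr11:17211540-17211564 (-) and Wdr43 at chr17:71616220-71616249 (+).
Ltv1: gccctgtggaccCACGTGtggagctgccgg
Tsr1: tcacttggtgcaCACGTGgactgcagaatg
Utp20: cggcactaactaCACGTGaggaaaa
Pes1: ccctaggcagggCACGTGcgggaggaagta
Pno1: tgtacaaccacgCACGTGttcctct
Wdr43: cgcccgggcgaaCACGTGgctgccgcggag
Nop2, Ltv1, Tsr1 and Utp20 fell with age in HSC, and Imp4, Rrn3, Pes1, Pno1 and Wdr43 were not called. A match to these letters describes the window and does not show binding. The windows of Polr1d, Nop10 and Emg1 held no match, from which nothing is drawn about a factor.

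With age in GMP, 0 of the 47 genes were called, as were 0% of all genes by limma. Of the 47, 4 had an unadjusted p under 0.05, against 870 of all 19296 genes. Their median difference was -0.04 log2, with 27 genes below zero and 20 above. The groups were apart and lower in old GMP for 2 genes (3.72% of all genes), and apart and higher for 2 (3.1% of all genes). The genes with the smallest p pointed in opposite directions. Polr1d read 11.56, 11.75, 11.69 and 11.19 in young GMP and 10.79, 10.94 and 11.27 in old GMP (-0.55 ± 0.18 log2, adjusted p = 0.9). Gar1 read 10.28, 10.37, 10.27 and 10.25 in young GMP and 10.59, 10.50 and 10.66 in old GMP (0.29 ± 0.10 log2, adjusted p = 0.9). Neither was called, and without replicate 4 of both young groups 0 of the 47 were called as well, while 0.876% of all genes were then lower. Emg1, with 10.94, 10.93, 10.85 and 10.61 in young GMP and 10.66, 10.59 and 10.52 in old GMP, and Nop10, with 12.25, 12.14, 12.14 and 11.70 in young GMP and 11.48, 11.67 and 12.04 in old GMP, differed by -0.24 ± 0.15 and -0.32 ± 0.18 log2.

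The age difference in HSC was set against that in GMP in the same fit. For this difference of differences 0 of the 47 genes were called, against 0.0933% of all genes, and 14 of the 47 had an unadjusted p under 0.05, as did 2165 of all 19296 genes and 524 of the 2329 genes of like signal. The median was -0.32 log2, the sign of a larger decrease in HSC, against 0.02 for all genes and -0.28 for genes of like signal. Of the 47, 43 (91.5%) lay below zero, against 47.6% of all genes and 83.9% of genes of like signal, so the ribosome genes were close to other bright genes here. Nop56 had the smallest p, at -0.60 ± 0.15 log2 (adjusted p = 0.151). Its means were 11.36 ± 0.07 in young HSC, 10.99 ± 0.17 in old HSC, 11.50 ± 0.04 in young GMP and 11.73 ± 0.06 in old GMP. Wdr12 followed at -0.73 ± 0.21 log2 (adjusted p = 0.244). In the main fit none of the 47 genes was thus shown to age differently in the 2 cell types. Wdr12 and Nop56 passed when young HSC replicate 4 was left out (limma adjusted p = 0.0426 and 0.0493), and 14 of the 47 did with array weights. Calls rose over the whole table in these fits, to 0.876% and 8.76% of all genes lower. Without replicate 4 of both young groups, 0 of the 47 were called, while 0.632% of all genes were lower. A p above the threshold does not show that the age effects are equal.

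**Figure D4:**
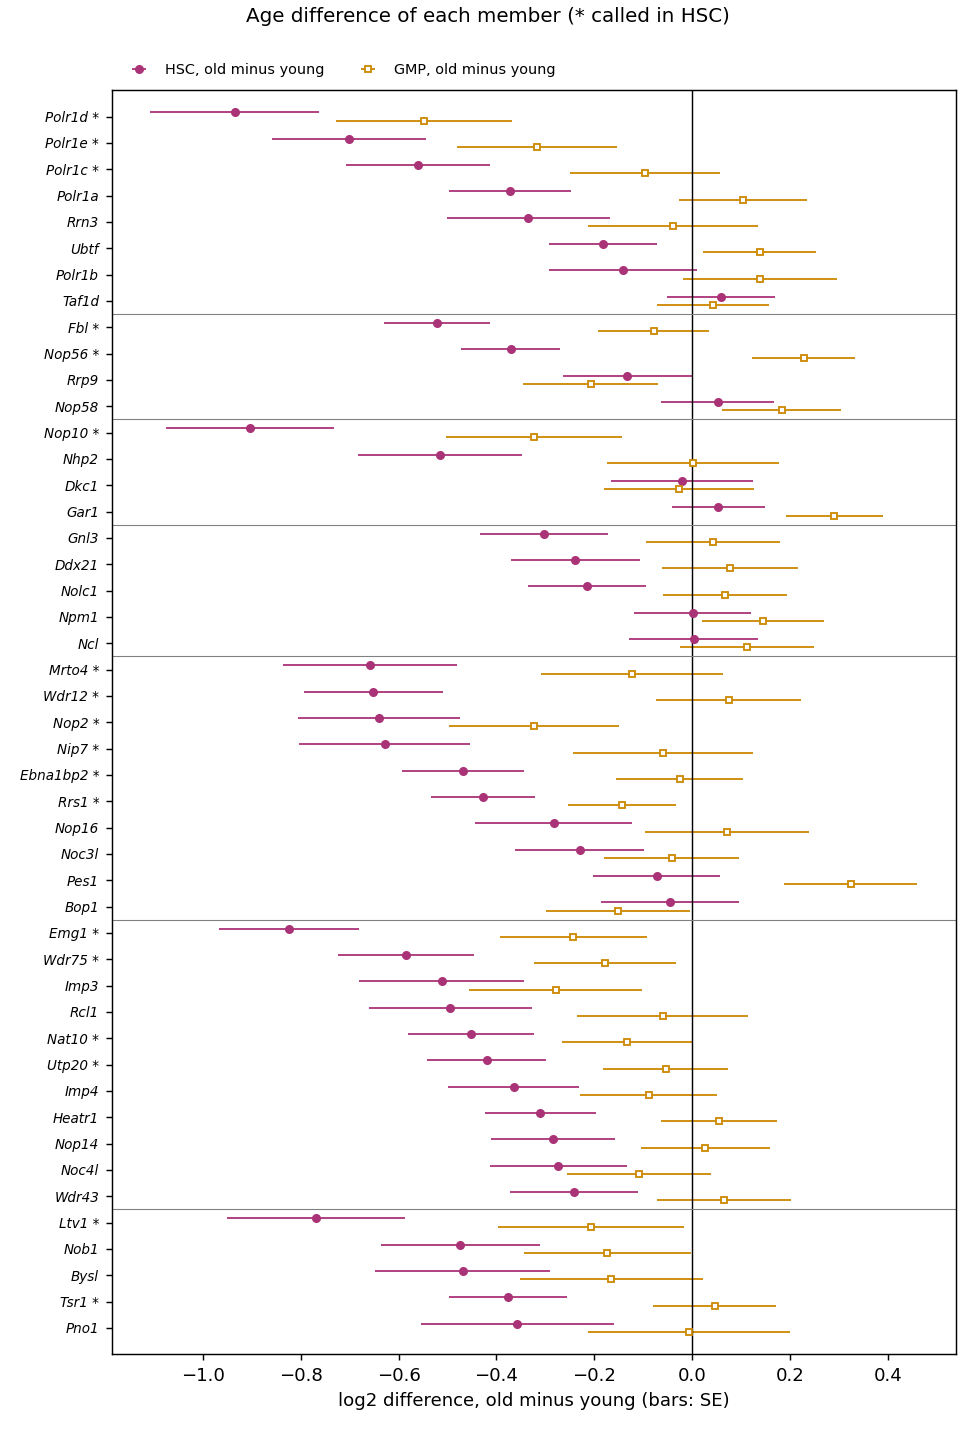
Log2 difference between old and young cells for each of the 47 genes, with bars of 1 standard error, in HSC and in GMP, ordered by role. In HSC 42 of 47 differences lie below zero and 18 are called, and in GMP 27 lie below zero and 0 are called.

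Between the cell types in young mice, 14 of the 47 genes (29.8%) were lower in HSC than in GMP and 0 were higher. They included Pno1 and Rrs1, of small and large subunit assembly, and Dkc1, Nhp2 and Gar1 of the box H/ACA particle. Of all genes, 10.9% were lower and 13.6% higher, and of genes in the same range of mean signal 21% were lower. The median of the 47 was -0.23 log2, against -0.05 for all genes and -0.04 for genes of like signal. Of the 47, 39 (83%) lay below zero, against 58.7% of all genes and 53.5% of genes of like signal. The groups were apart, with HSC lower, for 11 genes (9.51% of all genes, and 391 of the 2329 genes of like signal). Box H/ACA proteins contributed 3 of 4 and RNA polymerase I 0 of 8. With the replicate number as a block within age, 19 were lower, and the share of all genes lower rose to 15.8%. This block joins the HSC and GMP samples of one number at each age, although the old ones were not taken to be pairs. The additional genes were Ltv1, Polr1d, Nop16, Nop10 and Bysl.

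Pno1, the RNA-binding partner of Nob1, had the largest difference in young mice. It measured 8.04, 8.91, 8.48, 7.90 and 8.61 in young HSC and 9.48, 9.22, 9.05 and 8.97 in young GMP, 1.74-fold lower in HSC (-0.80 ± 0.18 log2, adjusted p = 0.00232). Dkc1 measured 10.07, 10.17, 10.31, 10.15 and 10.22 in HSC and 10.95, 10.85, 10.87 and 10.70 in GMP (1.58-fold lower, adjusted p = 0.000874). Rrs1 measured 10.22, 10.31, 10.16 and 10.08 in young GMP against the HSC values given above (-0.59 ± 0.10 log2, adjusted p = 0.00011). The same order held for Mrto4, Heatr1 and Bop1. Mrto4 differed by -0.59 ± 0.16 log2 (adjusted p = 0.0113). Heatr1, a scaffold of the processome, was 1.48-fold lower (adjusted p = 0.000343), and Bop1 1.45-fold lower (adjusted p = 0.00395).

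In old mice 31 of the 47 genes (66%) were lower in HSC than in GMP and 0 were higher. Of all genes, 13% were lower and 9.25% higher, and of genes in the same range of mean signal 36.8% were lower. The median of the 47 was -0.56 log2, against 0.02 for all genes and -0.29 for genes of like signal. Of the 47, 46 (97.9%) lay below zero, against 46% of all genes and 70.5% of genes of like signal. In 36 genes every old HSC array was below every old GMP array (18.4% of all genes, and 1018 of the 2329 genes of like signal). The lower genes were 4 of 4 box H/ACA proteins, 8 of 10 large subunit factors, 4 of 5 late small subunit factors, 7 of 11 processome genes, 3 of 5 chaperones and scaffolds, 2 of 4 box C/D proteins and 3 of 8 genes of RNA polymerase I. The old HSC arrays enter this comparison as well as the one with age in HSC, so both share samples. The test of whether the HSC to GMP difference changed with age is the difference of differences above, in which 0 of the 47 genes were called.

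Pno1 again had the largest difference, with 8.06, 7.92 and 8.11 in old HSC and 8.86, 9.12 and 9.55 in old GMP, 2.22-fold lower in HSC (-1.15 ± 0.22 log2, adjusted p = 0.000629). Mrto4 had 10.28, 10.10 and 10.68 in old GMP and was 2.17-fold lower in HSC (adjusted p = 0.000291), but its second, dimmer probe set stood at 0.06 ± 0.23 log2. Nhp2 had 10.41, 10.61 and 10.84 in old GMP and was 2.05-fold lower (adjusted p = 0.000364). In these genes no old HSC array reached the old GMP range. Ltv1 was 2.00-fold lower (adjusted p = 0.00103), Heatr1 1.90-fold lower (adjusted p = 1.7e-05) and Rrs1 1.83-fold lower (adjusted p = 1.58e-05). Fbl had 11.90, 11.83 and 11.86 in old GMP and was 1.73-fold lower in old HSC (adjusted p = 6.38e-05), and its second probe set stood at -0.38 log2.

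**Figure D5:**
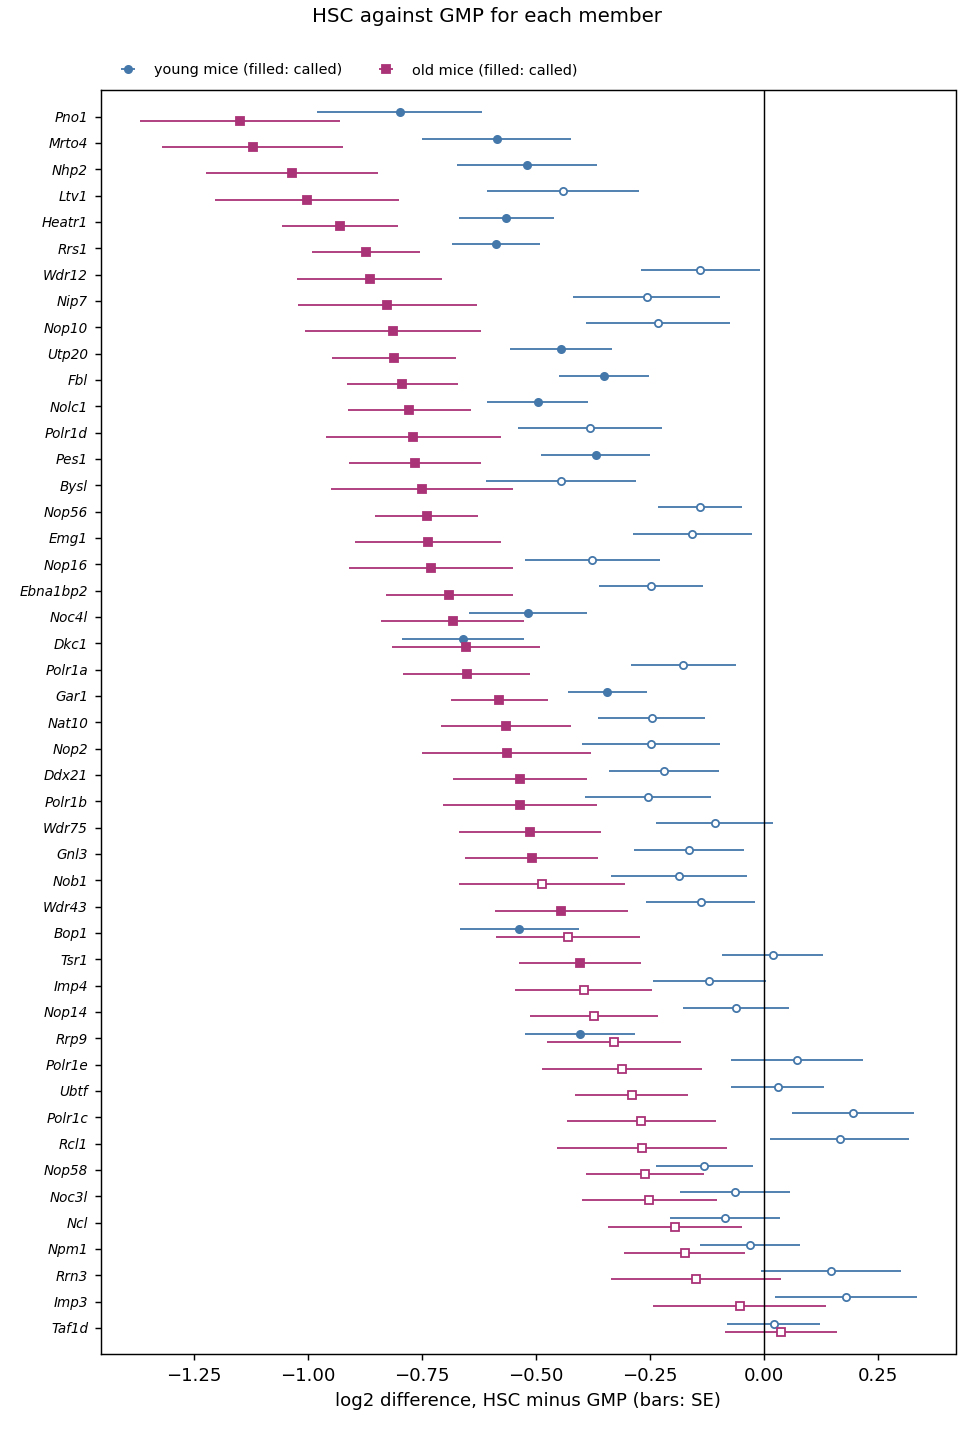
Log2 difference between HSC and GMP for each of the 47 genes, with bars of 1 standard error, in young and in old mice, ordered by the difference in old mice. In young mice 14 genes are called lower in HSC and in old mice 31, with 0 called higher at either age.

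Differences between the cell types were also called under other settings. After quantile normalization 19 genes were lower in HSC in young mice (13.2% of all genes) and 26 in old mice (12.2%). Without replicate 4 of both young groups, 15 were lower in young mice (12%) and 35 in old mice (15.6%). Of the 47 genes, 11 were lower in HSC in all 19 ways of fitting for young mice and 21 in all 16 for old mice. The share of all genes lower in every fit was not counted. Of the 90 other assembly genes, 22 (24.4%) were lower and 4 higher in young HSC, as deposited, where 10.9% of all genes and 21% of genes of like signal were lower. In old HSC 48 (53.3%) were lower and 0 higher, where these shares were 13% and 36.8%. The 7 proliferation genes, with means of 9.10 ± 0.29 in young HSC and 9.99 ± 0.11 in young GMP for Cdk1, were all lower in HSC at both ages, and their part in these differences was not tested. Mycn differed in the opposite direction, being 2.58-fold higher in HSC in young mice and 1.91-fold higher in old mice (adjusted p = 6.26e-06 and 0.00301). Myc was 1.45-fold lower in HSC in old mice (adjusted p = 0.0328) and not called in young mice (-0.09 ± 0.14 log2).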

How the data were processed

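RNA of 15 sorted samples was measured on Affymetrix mouse arrays. The deposited table held log2 values for 23309 probe sets with 0 missing values, made by the authors with RMA, affy and limma per the submitters' processing notes, which give no versions. No genome build or probe filter was given in the sources used here, and the log2 scale was read from the values. All columns matched samples by title (0 left over), and array medians ran from 7.25 to 7.42. Probe sets with 1 symbol (20728) were kept, those with several (1174) or none (1407) left out, and the brightest over the arrays stood for each of the 804 genes with more than 1, leaving 19296 genes.

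In limma 3.58.1 (R 4.3.3), 1 model with group means took in the 15 arrays, followed by eBayes moderation. Benjamini-Hochberg adjustment ran across the whole table, and a gene was called at an adjusted p under 0.05. The code was tested on simulated data. Errors of differences are standard errors of this fit, other errors are SDs, and precision is limited by the number of arrays. As the labels do not state separate animals, p-values measure only the spread between samples. Members and lists, including the other pathway genes and markers, were chosen with earlier results of these data known. The text gives values by array for members called with age in HSC and up to 2 uncalled per role, the 6 largest called differences between cell types at each age, and the 2 smallest p elsewhere. Genes named beyond this rule were chosen after their values were seen.

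Replicate numbers were checked as pairs through the correlation of deviations from group means. Young HSC and GMP of one number correlated at 0.16 to 0.52 in all 4 pairs and were taken to be pairs. The best match was the own number for 3 of these 4 young HSC arrays. Old HSC and GMP, at 0.05 to 0.42, were not taken to be pairs, nor were ages within a cell type. The main fit left out all pairing, also that of the young samples, and replicate blocks entered only as alternatives. Alternatives were quantile normalization, a filter on dim genes, the mean of probe sets, the interquartile range as a covariate, trend and robust moderation, array weights, replicate blocks, only the compared groups, and leaving out arrays. Promoter windows came from RefSeq (GRCm38.p6).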

Additional observations from a re-analysis of the deposited data

Results flagged for a closer look

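Within groups of 4 or 5 arrays, the highest or lowest value was set against its neighbours by Dixon's ratio in 96 cases (47 genes and their mean, in young HSC and young GMP), and 3 values stood out, where chance alone gives about 1 in 20. All 3 belonged to young GMP replicate 4, one of the arrays with low Y-linked signal. Nop16, of large subunit assembly, read 9.73 there, against 10.20 to 10.27 on the other young GMP arrays. Nip7, a pre-rRNA processing factor, read 9.15 against 9.61 to 9.66. Wdr43, of the small subunit processome, read 11.75 against 11.55 to 11.58, and was the only one of the 3 that was high. Without this array the young HSC to GMP difference of Nop16 was -0.50 log2 and passed the threshold (limma adjusted p = 0.0149).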

How the results depend on the processing

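No direction of a called difference reversed under any alternative run, for the called counts and the genes named. The number lower with age in HSC (18) moved most. It was 6 after quantile normalization (with 1 higher, Gar1) and 0 with the interquartile range as a covariate. With only the groups compared it was 9 (4.06% of all genes), and with array weights 36 (25.2%). With the replicate number as a block it was 28 (19.2%), as it was without replicate 4 of both young groups. Between the ages that block joins arrays of one number, which were not taken to be pairs. Replicate 4 exists only in the young groups. When each array was left out the number ran from 3 to 27, with 1.44% to 17.9% of all genes lower. The causes of these moves were not tested. Fits with arrays left out hold fewer samples, and their counts both fell and rose. With age in GMP (0), array weights gave 3 lower (Polr1d, Nop10, Nop2; 3.43% of all genes) and 1 higher (Pes1), the replicate block gave 1 lower (Polr1d; 1.05%), and leaving out arrays gave 0 throughout. For HSC against GMP in young mice (14), the covariate gave 22 (2813 of all genes lower), and array weights gave 1 higher (Polr1c, with 3448 of all genes higher). Leaving out arrays gave 12 to 15 lower there, with 8.38% to 13% of all genes lower. It gave 0 to 1 higher, the latter Polr1c without young HSC replicate 4 (2983 of all genes higher). In old mice (31), leaving out arrays gave 23 to 33, with 9.53% to 13.5% of all genes lower. For the difference of age effects (0), array weights gave 14 lower (8.76% of all genes) and leaving out arrays 0 to 2 (up to 0.876%). Over the named genes, 95 values for age in HSC lost the call and 39 gained it, while the 6 genes named by size for HSC against GMP at each age kept theirs; other genes gained one there, as given above.

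Apart from the counts given, the replicate block moved no count by more than 1.5 times. Of the arrays not taken as paired, the best match was the own number for 2 of 3 old HSC arrays among old GMP, 1 of 3 old HSC arrays among young HSC and 0 of 3 old GMP arrays among young GMP.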

Other observations

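The RNAs with which the snoRNP proteins work were partly on the arrays, and they were looked at after the results above were seen. Of 30 box C/D RNAs with a Snord symbol, 3 fell and 1 rose with age in HSC, with a median of -0.27 log2, where 9.22% of all genes fell and 2.25% rose. Of 20 box H/ACA RNAs with a Snora symbol, 2 fell and 0 rose, with a median of -0.21 log2. Both counts are near the share over all genes. With age in GMP 0 of either class were called, with medians of -0.13 and -0.11 log2. Rnu3a, annotated as the U3 RNA of the small subunit processome, averaged 9.71 ± 0.52 in young HSC (SD, n = 5), 7.96 ± 0.23 in old HSC (n = 3), 11.09 ± 0.70 in young GMP (n = 4) and 10.36 ± 0.24 in old GMP (n = 3). With age in HSC it fell by 3.34-fold (limma adjusted p = 0.00283), and it was 2.61-fold and 5.25-fold lower in HSC than in GMP in young and old mice (adjusted p = 0.000556 and 1.74e-05). Its age difference in GMP was -0.73 ± 0.31 log2 (SE) and was not called. Many snoRNAs lie in introns of other genes, and probe sets of such RNAs can also read the host transcript.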
